A study of Mus musculus with 97 samples.

Results

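Hearts of male C57BL/6 mice fed naproxen at 1610 ppm in chow were compared with hearts of males fed normal chow. Replicates 6 to 10 of each diet in the first experiment were taken, giving 5 naproxen and 5 control libraries, which are 10 of the 97 libraries in the series. The diets lasted 3 weeks, the animals were 11 weeks old, and neither group received injections. Each library is the whole heart of a separate animal, so blood, vessels, valves and attached tissue are part of what was sequenced. RNA was captured by its poly-A tail with a stranded kit. For comparison, the same experiment holds 5 naproxen (1323 ppm) and 5 control females without injections, and a second experiment holds 7 naproxen (1323 ppm) and 8 control females given PBS (phosphate buffered saline) injections in the last week. All of these are C57BL/6 animals of the same labelled age. No transgene or deletion is labelled in any group.

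Naproxen is a non-selective non-steroidal anti-inflammatory drug. It blocks both cyclooxygenases, the enzymes that Ptgs1 and Ptgs2 encode, which turn arachidonic acid into the precursor of prostaglandins, prostacyclin and thromboxane. In the heart these lipids act on vessel tone, platelets and inflammation, and long use of such drugs in people is known for cardiovascular risk. Cardiomyocytes make up most of the heart's mass, live mainly on fatty acids and are dense in mitochondria. Among them lie endothelial cells, fibroblasts and resident macrophages, which present antigen on MHC class II molecules. MHC class I molecules are carried by nearly all nucleated cells.

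The libraries held between 28.91 and 31.11 M estimated counts (M, 1e+06) in naproxen hearts and between 26.3 and 32.47 M in control hearts. Levels are given as CPM, counts per 1e+06 counts of the library size after TMM scaling, which assumes that most genes do not differ. Cardiomyocyte markers were abundant in all 10 hearts, with summed levels between 40480 and 53280 CPM in naproxen hearts and between 36990 and 45860 CPM in control hearts. The Y-linked gene Ddx3y lay between 88 and 145 CPM in naproxen hearts and between 89.9 and 110 CPM in control hearts, and Xist was at or below 0.836 CPM in all 10, all of which are labelled male. Transcripts of the mitochondrial genome took 34.45, 32.25, 39.23, 32.97 and 30.52% of the counts in naproxen hearts 6 to 10, against 33.23, 30.6, 31.29, 29.71 and 26.89% in control hearts 6 to 10. Naproxen heart 8 lay furthest out on the first component of variation, which held 29.1% of the variance of the 2000 most variable genes. Naproxen heart 9 held 13830 CPM of erythroid markers, where the other naproxen hearts held 1462 to 2808 CPM and the control hearts 1286 to 3978 CPM. TMM factors were between 0.819 and 0.968 in naproxen hearts and between 0.968 and 1.104 in control hearts. Scaled by library totals alone, the median log2 difference of all genes was -0.18, against -0.01 with TMM, so the differences below are relative to the typical gene.

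**Figure D1:**
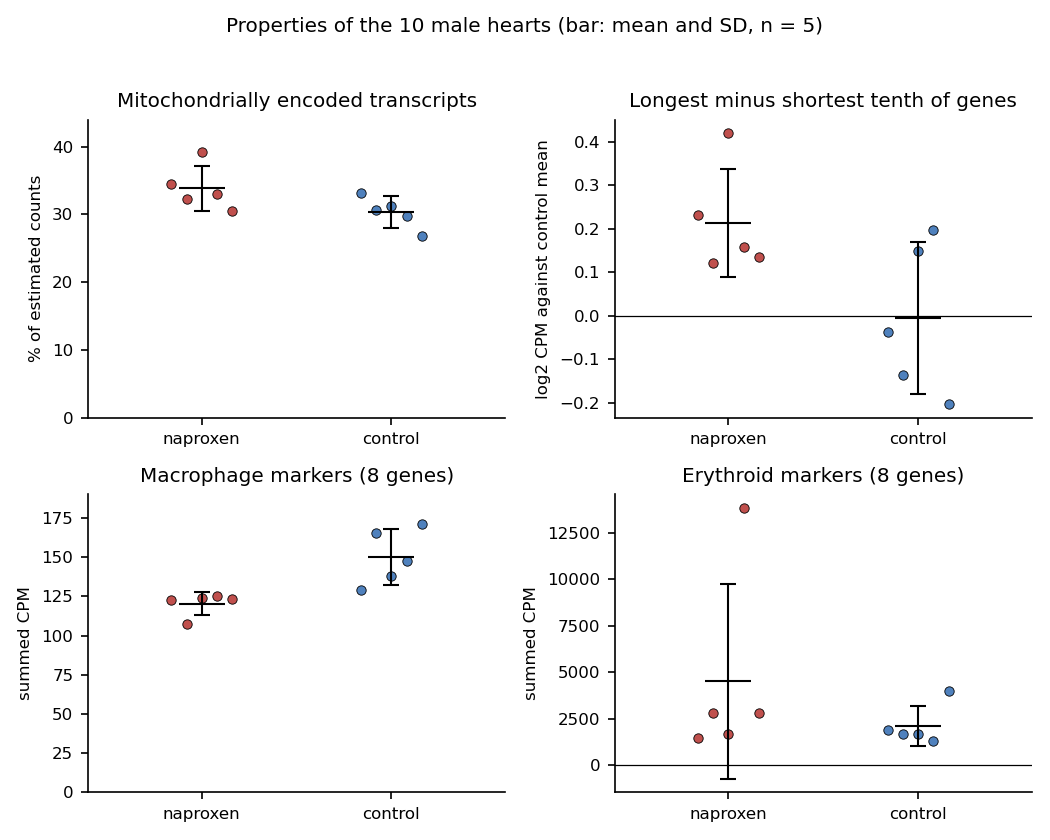
Properties of the 10 male hearts, with naproxen left and control right; each point is 1 heart and the bars are the mean and SD of 5. The panels give the share of mitochondrially encoded counts (percent), the median of the longest 10% of genes minus that of the shortest 10% (log2 CPM against the control mean), and summed CPM of 8 macrophage and 8 erythroid marker genes. Macrophage sums do not overlap (107.2 to 125.2 CPM in naproxen hearts, 128.7 to 171.1 CPM in control hearts), and naproxen heart 9 stands apart in erythroid markers at 13830 CPM.

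Of 15152 genes tested, 0 passed an adjusted p of 0.05 in edgeR's quasi-likelihood test (0% called). At an unadjusted p under 0.05, 723 genes were higher (4.77%) and 463 were lower (3.06%) in naproxen than in control hearts. Scaled by library totals alone the balance was the other way round, with 93 higher and 2177 lower at that p. Without any effect about 5% would be found in both directions together. In 300 genes all 5 naproxen hearts lay above all 5 control hearts (1.98%), and in 169 they lay below them (1.12%), against 21 and 828 with library totals. DESeq2 called 40 genes, of which H2-K1 alone was lower, and limma's voom called 0. DESeq2 gave most of the tested genes no adjusted p, so it could not call them. Its correction covered only the genes that had one, far fewer than the 15152 of edgeR. Among the genes without one were the lower H2-Q7, Tesmin, Bcl6b and H2-Q4 and the higher Adra1a. Each of them had a smaller unadjusted p in DESeq2 than H2-K1. The DESeq2 calls therefore do not show that H2-K1 stood alone among the lower genes. Unadjusted p-values under 0.05 numbered 1234 in DESeq2 and 1139 in voom. Without naproxen heart 8 no gene passed in edgeR and 939 had an unadjusted p under 0.05, against 1186 with all hearts. Without naproxen heart 9 these counts were 1 and 1055. The genes described below are therefore differences with their errors, and none of them passed the correction over all genes in edgeR.

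The smallest p belonged to Fnip2, which encodes a folliculin-interacting protein that binds AMP-activated protein kinase and acts in nutrient sensing. The levels of Fnip2 were 37.6, 38.6, 44.5, 33.9 and 52.1 CPM in naproxen hearts, against 20.3, 23, 26.4, 24.4 and 26.6 CPM in control hearts. Every naproxen heart was above every control heart. The log2 difference was 0.78 ± 0.12 (SE), with an edgeR adjusted p of 0.053, just over the threshold. Leaving out naproxen heart 9 brought the adjusted p to 0.036 and leaving out control heart 8 to 0.045, while leaving out control heart 6 brought it to 0.32. Rnf144b, an E3 ligase with RING-between-RING domains, had 46.3, 48.9, 53.2, 50.6 and 51.1 CPM in naproxen hearts and 24.7, 26.9, 29.8, 24.6 and 35.6 CPM in control hearts. These groups too were apart, by 0.82 ± 0.16 on the log2 scale (edgeR adjusted p = 0.32). For both genes the means of the diets lay further apart than the SD within either diet. The exact two-sided permutation p was 0.00794 for each, the smallest that 5 hearts against 5 can give. Any gene without overlap gets this value, so it adds nothing to the lack of overlap. The partner Fnip1 averaged 98.0 ± 16.1 CPM in naproxen hearts and 76.7 ± 8.89 CPM in control hearts (SD, n = 5 each), and these ranges overlapped.

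Ppara, Sesn1, Pfkfb2 and Lpin1 were among the 15 higher genes of smallest p, while Ppargc1a and Foxo3 were not. Ppargc1a, which encodes the coactivator PGC-1 alpha of mitochondrial biogenesis, had 182, 156, 207, 151 and 203 CPM in naproxen hearts, against 112, 117, 139, 98.3 and 109 CPM in control hearts. The groups did not overlap, at a log2 difference of 0.64 ± 0.20 (edgeR adjusted p = 0.40). Ppara, the nuclear receptor that drives fatty acid oxidation genes, had 37.8, 43.7, 38.7, 35 and 42 CPM in naproxen hearts and 24.2, 24.4, 37.7, 23.5 and 22 CPM in control hearts. Only control heart 8 reached the naproxen range, and without that heart Ppara had an edgeR adjusted p of 0.017, against 0.33 with it. Sesn1, a stress-induced inhibitor of mTORC1 signalling, had 152, 149, 172, 147 and 153 CPM in naproxen hearts and 110, 111, 115, 97.7 and 124 CPM in control hearts, again with no overlap (log2 difference 0.47 ± 0.10). Pfkfb2, the cardiac enzyme that makes the glycolysis activator fructose bisphosphate, had 145, 104, 139, 87.1 and 147 CPM in naproxen hearts and 84.6, 93.2, 89.5, 81.6 and 67.1 CPM in control hearts. Here naproxen heart 9 lay among the controls. Lpin1, a phosphatidate phosphatase of lipid synthesis that also acts with PGC-1 alpha, was higher by 0.39 ± 0.10 on the log2 scale, and Foxo3, a transcription factor of starvation and atrophy programmes, by 0.37 ± 0.10.

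Fbxo32 and Adra1a belonged to the same 15, while Rhobtb1 and Npr3 did not. Fbxo32, the muscle-specific ubiquitin ligase atrogin-1, had a lowest, median and highest level of 250, 256 and 326 CPM in naproxen hearts, against 182, 197 and 205 CPM in control hearts, with no overlap and a log2 difference of 0.49 ± 0.12. Adra1a, an alpha-1 adrenergic receptor of cardiomyocytes, had 24.6, 26.5, 24, 26.1 and 30.6 CPM in naproxen hearts and 14.8, 17.5, 21.2, 17.7 and 17 CPM in control hearts (0.58 ± 0.12). In Adra1a too the lowest naproxen heart was above the highest control heart. Rhobtb1, an adaptor of the cullin 3 ubiquitin ligase, averaged 173 ± 16.6 CPM in naproxen hearts and 122 ± 28.8 CPM in control hearts, and Npr3, the clearance receptor of natriuretic peptides, 67.2 ± 10.4 CPM in naproxen hearts and 48.6 ± 6.38 CPM in control hearts (SD, n = 5 each). Bach1, a repressor of haem oxygenase, Naca, Samd4, Tmem131, Zfp507 and Ttll5 were also among the 15 higher genes of smallest p, at log2 differences between 0.32 and 0.40. All 6 had every naproxen heart above every control heart. The edgeR adjusted p of the 15 was 0.053 for Fnip2 and between 0.32 and 0.40 for the rest.

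**Figure D2:**
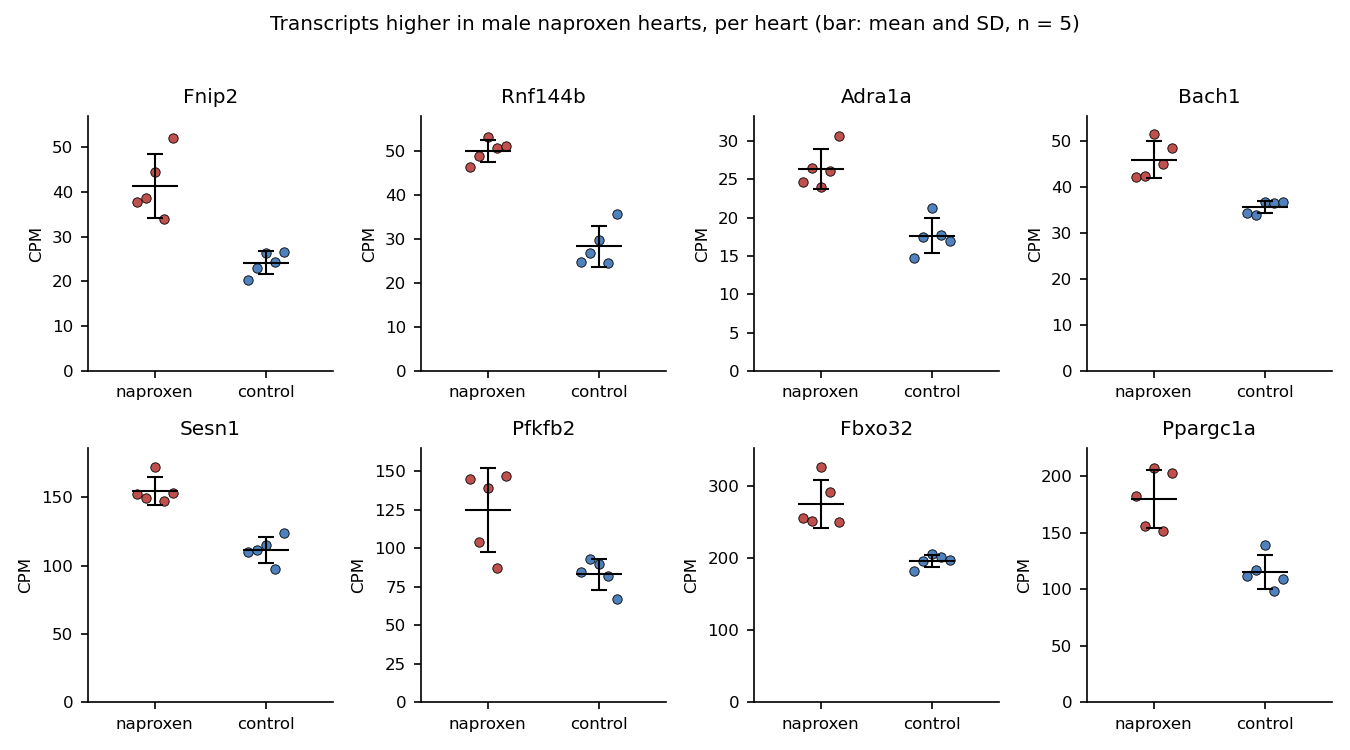
Level in CPM of 8 transcripts in each of the 5 naproxen (left) and 5 control (right) male hearts; the bars are the mean and SD. The groups are apart for all but Pfkfb2, where naproxen heart 9 at 87.1 CPM lies below control heart 7 at 93.2 CPM.

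Of naproxen's own targets, Ptgs1 was higher on average and Ptgs2 was near its control level. Ptgs1, the constitutive cyclooxygenase, had 12.1, 17.9, 14.7, 16 and 12.7 CPM in naproxen hearts, against 11, 12.7, 11.8, 10 and 12.1 CPM in control hearts. The ranges overlapped, and the log2 difference was 0.35 ± 0.12 (edgeR adjusted p = 0.49). Ptgs2, the inducible cyclooxygenase, was low at 1.78 ± 0.37 CPM in naproxen hearts and 1.85 ± 0.28 CPM in control hearts (SD, n = 5 each). Its log2 difference of -0.06 ± 0.18 was within the spread. Ptger4, the prostaglandin E receptor EP4, had 1.14, 2.41, 2.03, 1.58 and 1.69 CPM in naproxen hearts and 2.72, 2.55, 2.74, 3.31 and 2.35 CPM in control hearts. Naproxen heart 7 lay just above the lowest control (log2 difference -0.63 ± 0.21, edgeR adjusted p = 0.46). Of 26 tested genes of prostanoid synthesis and reception, 9 were higher and 17 lower, with a median of -0.06 against -0.01 over all genes. Ptgs1 and Ptger4 were the only members at an unadjusted p under 0.05. Of all genes, 4.77% were higher and 3.06% lower at that p, so this count is near the share of all genes.

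The lowest of 34 pathway lists in naproxen hearts were those of antigen presentation on MHC molecules. Most of these genes lie in the MHC region of chromosome 17. Promoters of both MHC classes are known for a shared module in which an X2 box, read by CREB and ATF factors, stands upstream of a Y box, an inverted CCAAT motif read by NF-Y. The 150 bases before the annotated start are shown for genes of the class II molecule and its loader and for the 3 class I genes among the 15 lower genes of smallest p (RefSeq, build GRCm38.p6; H2-K1 has 2 listed starts). Capitals mark ATTGG or its complement CCAAT, and TGACG or its complement CGTCA, on either strand.
H2-Aa, chr17:34287824-34287973, strand -: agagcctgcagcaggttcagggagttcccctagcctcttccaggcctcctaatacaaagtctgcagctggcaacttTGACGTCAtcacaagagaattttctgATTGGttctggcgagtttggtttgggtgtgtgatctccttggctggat
H2-Eb1, chr17:34305717-34305866, strand +: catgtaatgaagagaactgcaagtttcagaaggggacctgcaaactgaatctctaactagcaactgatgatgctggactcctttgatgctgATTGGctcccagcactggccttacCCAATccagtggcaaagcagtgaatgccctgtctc
H2-DMb1, chr17:34153041-34153190, strand +: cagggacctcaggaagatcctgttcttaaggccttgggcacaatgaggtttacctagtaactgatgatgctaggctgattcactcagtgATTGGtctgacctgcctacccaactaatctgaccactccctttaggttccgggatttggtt
H2-K1, chr17:34000348-34000497, strand -: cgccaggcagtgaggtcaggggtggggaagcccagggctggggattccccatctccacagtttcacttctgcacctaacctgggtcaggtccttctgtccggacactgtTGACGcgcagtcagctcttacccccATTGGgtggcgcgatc
H2-Q7, chr17:35439005-35439154, strand +: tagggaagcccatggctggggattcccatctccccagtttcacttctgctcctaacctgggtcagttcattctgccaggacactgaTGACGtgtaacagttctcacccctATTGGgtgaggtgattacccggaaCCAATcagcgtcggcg
H2-Q4, chr17:35379467-35379616, strand +: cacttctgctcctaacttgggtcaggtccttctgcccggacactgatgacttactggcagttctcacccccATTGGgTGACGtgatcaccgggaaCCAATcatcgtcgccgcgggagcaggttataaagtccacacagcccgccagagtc
All 6 windows hold ATTGG or CCAAT, which 24.5% of 32851 such windows of RefSeq genes hold. The 6 genes are a chosen part of the MHC lists, and H2-Ab1, for example, is not among them. TGACG or CGTCA was in 4 of the 6, and in 13.3% of all windows; in H2-Aa the letters TGACG and CGTCA overlap. In H2-Aa, H2-K1 and H2-Q7 it stands upstream of ATTGG, while in H2-Q4 it stands downstream of ATTGG and upstream of CCAAT. Both motifs together stand in 3.7% of all windows. The same window is shown for the higher genes that lead the description above, of which Rnf144b has 2 listed starts.
Fnip2, chr3:79567680-79567829, strand -: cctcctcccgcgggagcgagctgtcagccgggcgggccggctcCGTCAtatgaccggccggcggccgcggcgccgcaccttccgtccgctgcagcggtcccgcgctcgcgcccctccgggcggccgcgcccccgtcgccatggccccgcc
Rnf144b, chr13:47122570-47122719, strand +: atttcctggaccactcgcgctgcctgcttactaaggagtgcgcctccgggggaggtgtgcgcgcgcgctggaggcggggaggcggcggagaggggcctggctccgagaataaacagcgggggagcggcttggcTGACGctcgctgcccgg
Ppargc1a, chr5:51567726-51567875, strand -: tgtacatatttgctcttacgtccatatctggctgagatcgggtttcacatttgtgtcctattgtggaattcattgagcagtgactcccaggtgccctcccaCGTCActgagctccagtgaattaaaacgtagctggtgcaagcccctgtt
These 3 hold TGACG or CGTCA and no ATTGG. The GENCODE annotation starts Fnip2, Rnf144b and H2-DMb1 further upstream than the RefSeq starts used here. The marked letters of these genes lie inside the gene by that annotation. A match of letters is a description and no binding was measured.

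All 9 tested class II genes were lower in naproxen hearts, with a median log2 difference of -0.72. Of these 9, 6 were at an unadjusted p under 0.05, where 3.06% of all genes were lower at that p. The summed level of the 9 was 151.6, 99.77, 94.23, 137.5 and 155.2 CPM in naproxen hearts, against 222.8, 264.4, 129.4, 175.4 and 263.5 CPM in control hearts. Control heart 8 was the lowest control and lay within the naproxen range. H2-Aa, the alpha chain of the I-A molecule, had 37, 17.2, 20.5, 28.1 and 31.6 CPM in naproxen hearts and 47.7, 53.2, 28.5, 36.6 and 55 CPM in control hearts (log2 difference -0.72 ± 0.27, edgeR adjusted p = 0.50). H2-Eb1, the beta chain of the I-E molecule, had 22.4, 14.7, 11.6, 20.5 and 23.3 CPM in naproxen hearts and 36.6, 41.3, 19.5, 27.7 and 40.5 CPM in control hearts (-0.84 ± 0.31). H2-Ab1, the I-A beta chain, differed by -0.76 ± 0.30 on the log2 scale, and H2-DMb1, a chain of the molecule that loads peptide on class II, by -0.81 ± 0.33. In all 4, control heart 8 lay within the naproxen range, and for H2-Aa control heart 9 did too.

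Of 20 tested class I genes 19 were lower in naproxen hearts, with a median log2 difference of -0.37. At an unadjusted p under 0.05 were 9, all lower, where 3.06% of all genes were lower at that p. H2-K1, a classical class I heavy chain, had 75.8, 67.1, 50.4, 62.5 and 67.1 CPM in naproxen hearts, against 112, 121, 63.7, 91.4 and 109 CPM in control hearts. Control heart 8 alone lay within the naproxen range. The log2 difference was -0.62 ± 0.16, with an edgeR adjusted p of 0.40, and H2-K1 was the lower gene that DESeq2 called (adjusted p = 0.043). The non-classical H2-Q7 had 16.1, 7.42, 8.16, 8.59 and 11.4 CPM in naproxen hearts and 21.5, 27, 10.2, 19.9 and 18.9 CPM in control hearts. Its log2 difference was -0.91 ± 0.21, and without control heart 8 its edgeR adjusted p was 0.045, against 0.33 with it. H2-Q4 (-0.59 ± 0.15) and H2-T22 (-0.47 ± 0.16) had the same order of groups. DESeq2 gave H2-Q7, H2-Q4 and H2-T22 no adjusted p, so it could not call them. Class I genes are near-identical copies of each other, so reads may be shared among them, and the split between single members is uncertain.

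**Figure D3:**
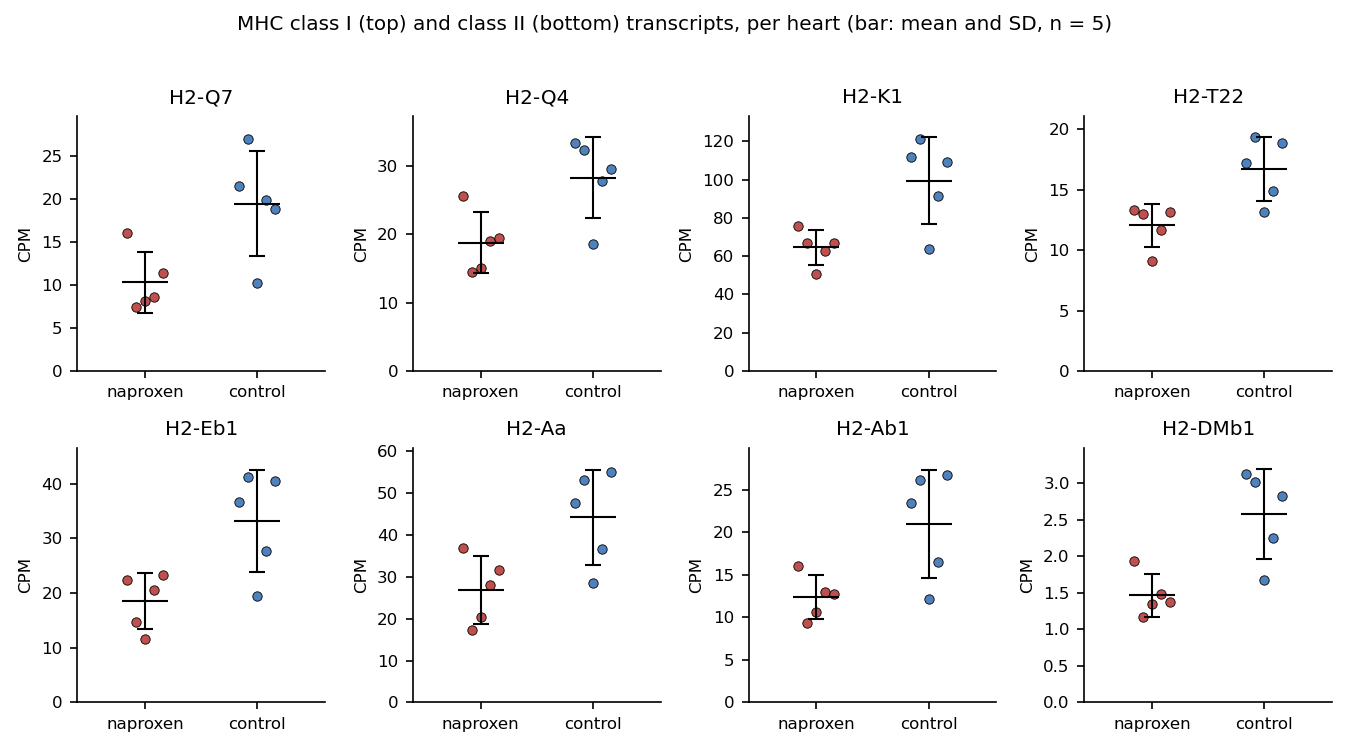
Level in CPM of 4 MHC class I (top) and 4 class II (bottom) transcripts in each naproxen (left) and control (right) male heart, with the mean and SD of 5. The naproxen means are lower in all 8 panels, and the lowest control point in all 8 is control heart 8, for example 63.7 CPM of H2-K1.

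Markers of macrophages, which carry much of a heart's class II, were lower in the same hearts. Their 8 genes summed to 122.4, 107.2, 123.9, 125.2 and 123.3 CPM in naproxen hearts, against 128.7, 165.6, 138, 147.3 and 171.1 CPM in control hearts, without overlap. Of the 8, 7 were lower, with a median of -0.44. Csf1r, the growth factor receptor of macrophages, averaged 26.3 ± 3.71 CPM in naproxen hearts and 36.9 ± 5.76 CPM in control hearts (SD, n = 5 each; edgeR adjusted p = 0.59). In whole hearts, fewer cells of a type and less RNA per cell cannot be told apart. Divided by the macrophage sum, the class II sum was 1.24, 0.93, 0.76, 1.1 and 1.26 in naproxen hearts and 1.73, 1.6, 0.94, 1.19 and 1.54 in control hearts, so these ratios overlapped. All 5 tested T and NK cell markers were lower too (median -0.48), at sums of 1.207 to 2.383 CPM in naproxen hearts and 1.839 to 3.398 CPM in control hearts, as were all 6 B cell markers (median -0.23), at 4.033 to 7.866 CPM in naproxen hearts and 4.543 to 12.95 CPM in control hearts. With single hearts left out, the T and NK median lay between -0.75 (without naproxen heart 9) and -0.23 (without control heart 6), and the B cell median between -0.43 (without control heart 7) and 0.04 (without control heart 6). Markers of atria (5 of 6 lower, median -0.44), adipocytes (5 of 6, -0.44) and neutrophils (4 of 5, -0.36) were lower too, with summed levels that overlapped between the groups. The atrial median was -0.22 without control heart 7, the adipocyte median -1.27 without naproxen heart 7 and -0.14 without naproxen heart 10, and the neutrophil median -0.01 without control heart 10. The part of these cells and tissues in the class I and class II differences was not tested.

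Interferon-stimulated genes pointed the same way at smaller size. Of 31 tested, 29 were lower in naproxen hearts, with a median of -0.25. At an unadjusted p under 0.05 were 6, all lower, where 3.06% of all genes were lower at that p. Irf1, a transcription factor of interferon gamma responses and of class I genes, averaged 16.7 ± 3.45 CPM in naproxen hearts and 21.8 ± 3.55 CPM in control hearts (SD, n = 5 each). Stat2 and Irf9, parts of the type I interferon transcription complex, differed by -0.26 ± 0.11 and -0.25 ± 0.11 on the log2 scale, and the antiviral protein Bst2 by -0.49 ± 0.20. Naproxen hearts 6, 9 and 10 lay inside the control range in each of these. Of 26 chemokine and inflammation genes 23 were lower (median -0.15). Among them Tnfaip3, a brake on NF-kappa B, had 2.64, 2.93, 1.94, 2.99 and 2.77 CPM in naproxen hearts and 3.13, 4.26, 3.71, 4.09 and 3.9 CPM in control hearts, apart by -0.52 ± 0.16 on the log2 scale. Cx3cr1, the fractalkine receptor of monocytes and macrophages, was low in both groups, at 1.25 ± 0.54 CPM in naproxen hearts and 2.32 ± 0.53 CPM in control hearts. Of 18 complement genes 15 were lower (median -0.26), none at an unadjusted p under 0.05.

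Immediate early genes, which cells switch on within minutes of a stimulus, were the next lowest list. Of 28 tested, 22 were lower in naproxen hearts (median -0.29), 6 at an unadjusted p under 0.05 and 5 with no overlap. Of all genes, 3.06% were lower at that p and 1.12% were lower with no overlap. Fosl2, a subunit of the AP-1 transcription factor, had 29.5, 20.9, 25.4, 25.7 and 23.8 CPM in naproxen hearts, against 49.7, 41.3, 33, 48.3 and 31.3 CPM in control hearts (log2 difference -0.70 ± 0.30, edgeR adjusted p = 0.58). Klf2, a flow-induced transcription factor of endothelium, had 14.6, 17.9, 17, 15.6 and 12.6 CPM in naproxen hearts and 22.9, 22, 22, 21.7 and 31 CPM in control hearts (-0.62 ± 0.24). Both were apart between the groups, while Btg2, an antiproliferative gene, and Jund, another AP-1 subunit, each had 1 naproxen heart above the lowest control heart (-0.64 ± 0.26 and -0.42 ± 0.18). Heat shock genes had the same sign. Dnajb1, a co-chaperone of HSP70, had 18.2, 11.7, 12.5, 13.5 and 17.3 CPM in naproxen hearts and 22.1, 29.4, 23.6, 32.9 and 33.1 CPM in control hearts, a log2 difference of -0.94 ± 0.25 (edgeR adjusted p = 0.40). Hspa1a, an inducible HSP70 gene with a near-identical copy, averaged 3.67 ± 0.85 CPM in naproxen hearts and 9.24 ± 5.68 CPM in control hearts (SD, n = 5 each). Of 24 heat shock and unfolded protein response genes, 20 were lower, yet their median was only -0.06.

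Extracellular matrix genes were lower as well. Of 20 collagens 17 were lower in naproxen hearts (median -0.19), and of 38 other matrix genes 28 were (median -0.20). Col1a2, a chain of type I collagen, had 63.2, 50.7, 50.7, 54.2 and 64.8 CPM in naproxen hearts and 66.7, 76.2, 83.7, 79.7 and 73.3 CPM in control hearts, and Col3a1, the type III chain, averaged 90.8 ± 19.9 CPM in naproxen hearts and 122.9 ± 6.4 CPM in control hearts (SD, n = 5 each). Loxl1 and Loxl2, enzymes that cross-link collagen and elastin, differed by -0.50 ± 0.20 and -0.44 ± 0.16 on the log2 scale. None of the 4 genes overlapped between the groups, and their edgeR adjusted p lay between 0.50 and 0.69. Lower without overlap were 2 of the 20 collagens and 4 of the 38 others, where 1.12% of all genes were. The summed levels of both lists overlapped between the groups. Timp3, one of the other matrix genes, was higher by 0.29 ± 0.14 on the log2 scale. All 7 fibroblast markers were lower (median -0.28), with sums of 594.9 to 918.2 CPM in naproxen hearts and 793.7 to 996.5 CPM in control hearts. 3 of these markers are collagens of the same list.

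Transcripts of the contractile apparatus and of excitation were slightly higher. Of 39 calcium handling and channel genes 26 were higher in naproxen hearts (median 0.08), 7 at an unadjusted p under 0.05 and 0 lower at that p. Of all genes, 4.77% were higher and 3.06% lower at that p. Cacnb2, a subunit of the L-type calcium channel, had 87.4, 102, 98.7, 96.5 and 92.6 CPM in naproxen hearts, against 68.7, 71.1, 84.2, 73.1 and 70.1 CPM in control hearts (0.38 ± 0.10). Ryr2, the calcium release channel, had 1980, 1920, 2100, 1770 and 1950 CPM in naproxen hearts and 1470, 1660, 1720, 1600 and 1120 CPM in control hearts (0.36 ± 0.13). Ttn, the giant spring of the sarcomere, had 7360, 7550, 7800, 6890 and 8210 CPM in naproxen hearts and 4710, 5570, 6490, 5550 and 3990 CPM in control hearts, a log2 difference of 0.52 ± 0.17. In these 3 genes every naproxen heart exceeded every control heart. Of 27 sarcomere genes 17 were higher (median 0.05), and of 26 adrenergic and cAMP genes 20 were (median 0.07), with Akap6, which anchors protein kinase A in cardiomyocytes, at 0.37 ± 0.11. Abcc9, a subunit of the ATP-sensitive potassium channel, averaged 468 ± 14.2 CPM in naproxen hearts and 369 ± 30.2 CPM in control hearts (SD, n = 5 each). A list of ubiquitin ligases of muscle and of the RING-between-RING family, which also holds Foxo3, had 21 of 25 genes higher (median 0.08). The summed level of these 25 was 2084 to 2301 CPM in naproxen hearts and did not meet that of 1789 to 1907 CPM in control hearts. Rnf144b, Fbxo32, Rhobtb1 and Foxo3, described above, are part of that sum, so it is not separate from them. Scaled by library totals alone, the medians of the calcium, adrenergic, sarcomere, ubiquitin ligase and PGC-1 lists were between -0.11 and -0.08, where that of all genes was -0.18. That change of scaling moves all genes by about the same amount, so it cannot test where a list stands among all genes.

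These higher genes were long, and length moved with the diet across all genes. The median exonic length was 8585 bases among the 720 higher genes at an unadjusted p under 0.05 that have a length, 3322 bases among the 463 lower ones, and 4282 bases among all 15102 with a length. Across genes, which are not independent replicates, the rank correlation of length with the log2 difference was 0.30 in males and -0.02 in females. The longest 10% of genes had a median log2 difference of 0.12 and the shortest 10% of -0.09. Heart by heart, the longest minus the shortest 10% was 0.232, 0.121, 0.42, 0.158 and 0.136 in naproxen hearts and -0.036, -0.137, 0.149, 0.197 and -0.203 in control hearts, on the log2 scale against the control mean. Control hearts 8 and 9 reached the naproxen values. With a smooth length trend taken out of each library, a step chosen after seeing the data, the log2 difference was 0.11 for Ttn, 0.12 for Ryr2 and 0.09 for Cacna1c, the pore of the L-type channel, against 0.52, 0.36 and 0.28 before. Their edgeR adjusted p was then between 0.87 and 0.92. The log2 differences of Fnip2 (0.72), Rnf144b (0.84), Ppara (0.62) and Ppargc1a (0.62) stayed near their values, and the medians of class II (-0.63) and class I (-0.33) did too. Fnip2 then had an edgeR adjusted p of 0.16.

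All 13 genes of the mitochondrial genome, which encode core subunits of the respiratory chain, were higher in naproxen hearts, with a median log2 difference of 0.31. Scaled by library totals alone that median was 0.14, where that of all genes was -0.18. mt-Nd5, a subunit of complex I, had 31300, 31700, 39700, 31700 and 28400 CPM in naproxen hearts, against 23700, 23300, 25700, 22200 and 17300 CPM in control hearts, without overlap (0.54 ± 0.16, edgeR adjusted p = 0.40). mt-Atp8, a subunit of ATP synthase, averaged 5132 ± 1524 CPM in naproxen hearts and 3587 ± 598 CPM in control hearts (SD, n = 5 each). These transcripts share a genome and a large part of each library, and only mt-Nd5 and mt-Atp8 were at an unadjusted p under 0.05. The nuclear genes of the respiratory chain did not stand with them: of 39 tested, 18 were higher and 21 lower (median -0.03), 0 of them at an unadjusted p under 0.05. With the length trend removed the sign of that nuclear median turned, to 0.06, and the mitochondrially encoded median was 0.42. Of 15 genes of mitochondrial transcription and genome maintenance 8 were higher (median 0.03), and of 14 PGC-1 family genes and partners 9 were (median 0.09). Among those partners Esrrg, an orphan nuclear receptor of oxidative metabolism, differed by 0.30 ± 0.13. Of 38 fatty acid oxidation and PPAR alpha target genes only 13 were higher (median -0.06).

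**Figure D4:**
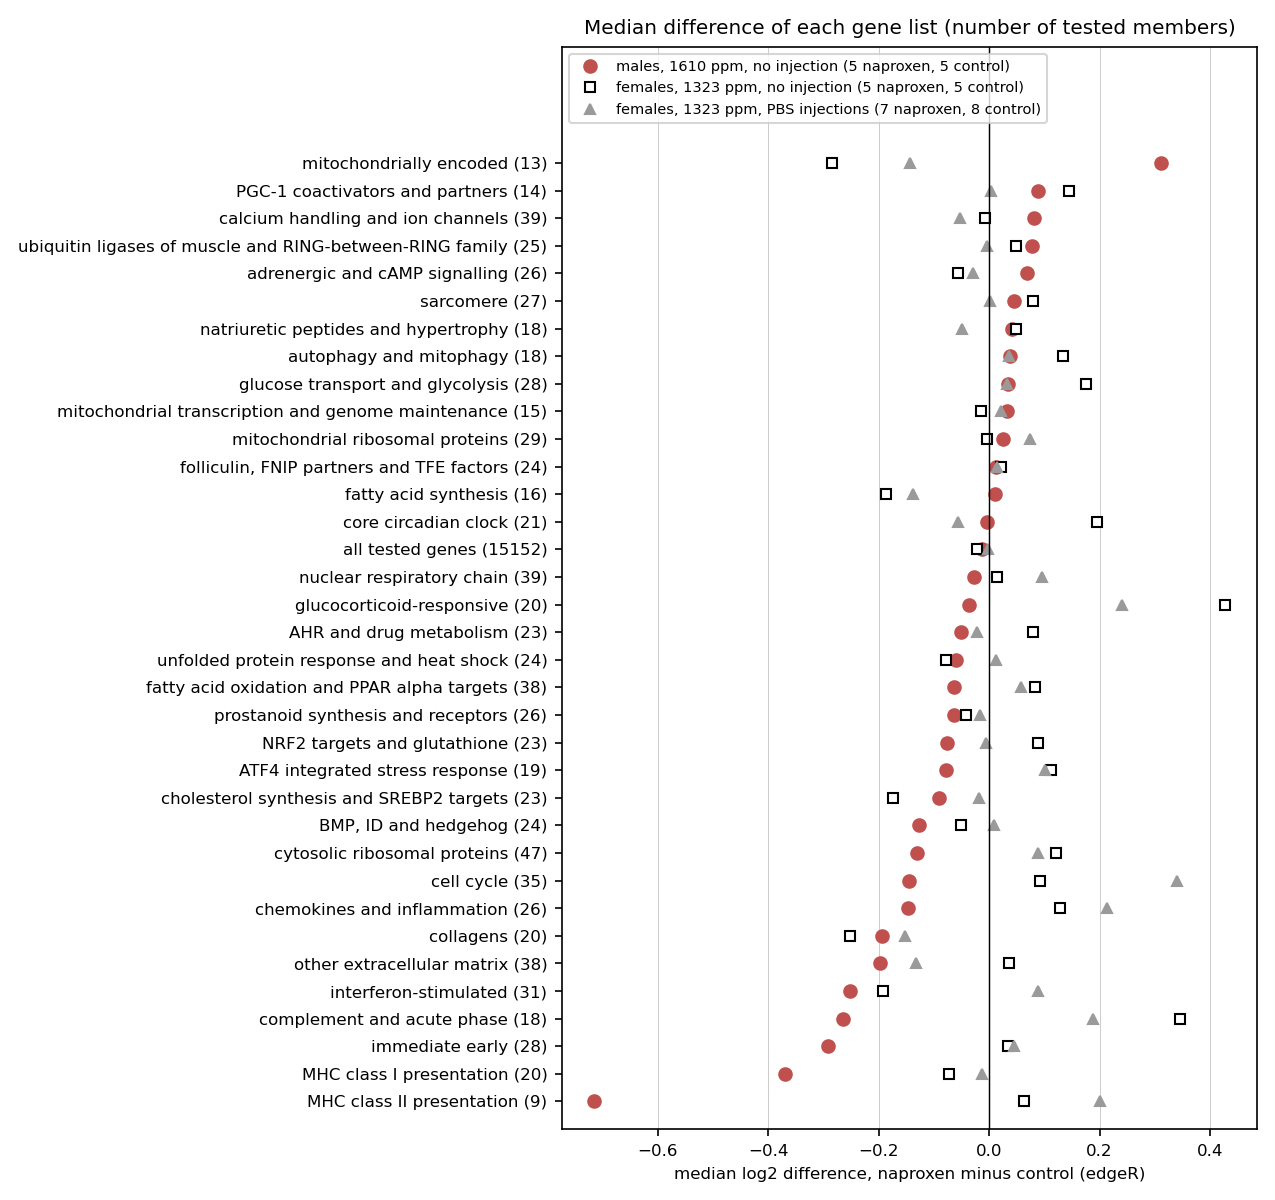
Median log2 difference (naproxen minus control, edgeR) of each pathway list with its number of tested members, in males without injections (filled circles), females without injections (open squares) and PBS-injected females (grey triangles). In males the 2 MHC lists lie lowest at -0.72 and -0.37 and the mitochondrially encoded list highest at 0.31, where the female medians are -0.29 and -0.14.

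Glucocorticoid-responsive genes were mixed in males. Of 20 tested, 7 were higher and 13 lower (median -0.04). Yet 4 higher members were at an unadjusted p under 0.05, where 4.77% of all genes were higher at that p. The sign of that median turned with the setting, between -0.22 with library totals alone and 0.21 without control heart 10. Zbtb16, a zinc finger repressor strongly induced by glucocorticoids, had 60.2, 123, 113, 63.6 and 89.8 CPM in naproxen hearts and 18.8, 27.1, 40.1, 33.6 and 60.2 CPM in control hearts. Control heart 10 equalled the lowest naproxen heart to 3 digits, and the log2 difference was 1.32 ± 0.43 (edgeR adjusted p = 0.43). Fkbp5, a co-chaperone of the glucocorticoid receptor, averaged 34.8 ± 9.32 CPM in naproxen hearts and 21.0 ± 12.2 CPM in control hearts, and Klf15, a regulator of amino acid and lipid use in heart muscle, 31.4 ± 6.82 CPM in naproxen hearts and 23.6 ± 5.37 CPM in control hearts (SD, n = 5 each). Both overlapped. In females the same list had 18 of 20 members higher and a median of 0.43. Among clock genes, of which 10 of 21 were higher, Rora, a nuclear receptor that drives Bmal1 transcription, had 61.7, 49.9, 76.7, 56.7 and 55.1 CPM in naproxen hearts and 41.1, 39.3, 49.4, 42.9 and 41 CPM in control hearts (0.49 ± 0.14).

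The 15 lower genes of smallest p also held genes outside the MHC. Bcl6b, a transcriptional repressor found in endothelium, had 17.2, 11.4, 11.6, 14.2 and 19.5 CPM in naproxen hearts, against 25.4, 27.4, 17.4, 30.6 and 20.8 CPM in control hearts (-0.72 ± 0.17, edgeR adjusted p = 0.35). Mxra8, an adhesion protein of stromal cells, had 15.7, 17, 14.4, 14.7 and 16.8 CPM in naproxen hearts and 19.7, 20.4, 24.4, 25.1 and 22.1 CPM in control hearts (-0.51 ± 0.14). Its groups were apart, as were those of Pdlim2, Gpsm2, Fancg, Tpst1 and Atraid, at log2 differences between -0.85 and -0.23. Tesmin (-1.03 ± 0.24) and the semaphorin Sema6a (-0.47 ± 0.13) overlapped. Cyp2f2, a cytochrome P450 of airway cells, rested on control hearts 9 and 10 at 4.15 and 28.2 CPM, while the other 8 male hearts held at most 0.621 CPM. Rps27rt, a retrogene copy of Rps27, had 0.953 CPM in naproxen heart 6 and 0 in the other 4, against 6.9, 5.51, 2.81, 3.06 and 7.55 CPM in control hearts, while Rps27 itself had 79.8 to 95 CPM in naproxen hearts and 82 to 104 CPM in control hearts. Reads of such copies can be split between them by estimation, so the difference in Rps27rt is uncertain. Rpl12, which is not among those 15, lay between 3.68 and 4.57 CPM in naproxen hearts and between 5.4 and 36.9 CPM in control hearts. Whether copies share its reads was not tested. Cytosolic ribosomal protein genes as a list were lower in 43 of 47 cases by little (median -0.13), and by less with the length trend removed (median -0.05).

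The effect in males was next set against that in females of the same experiment, whose libraries are separate but whose diet held 1323 ppm. Here sex and naproxen dose cannot be told apart. In edgeR, 0 of 15152 genes passed an adjusted p of 0.05 for the difference of the effects, and 763 were at an unadjusted p under 0.05 (5.04%). DESeq2 called 1 gene and voom 0. Fnip2 averaged 45.2 ± 6.14 CPM in naproxen females and 26.7 ± 3.73 CPM in control females (SD, n = 5 each), a log2 difference of 0.76 (edgeR adjusted p = 0.035), against 0.78 in males. The difference between those effects was 0.02 (edgeR adjusted p = 0.98). Rnf144b differed by 0.82 in males and 0.81 in females, and Ppargc1a by 0.64 in males and 0.79 in females. Rhobtb1 differed by 0.51 in males and 0.86 in females. Of the 100 genes with the smallest p in males, 90 had the same sign in females, whereas 66.3% of the 1186 genes at an unadjusted p under 0.05 and 47.1% of all 15152 genes did.

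Other groups of genes had unlike values in the sexes, none past the correction. The MHC class II median was -0.72 in males and 0.06 in females, and that of class I -0.37 in males and -0.07 in females. For H2-Eb1 the effects differed by -1.01 (edgeR adjusted p = 0.75). Macrophage markers followed the class II genes in sign, with 7 of 8 lower in males and 7 of 8 higher in females (median 0.31). Mitochondrially encoded genes were higher in 13 of 13 cases in males and in 0 of 13 in females (median -0.29). For 7 of them the difference between the effects was at an unadjusted p under 0.05, where 5.04% of all genes were. These transcripts share a genome and a large part of each library, so the 7 are not separate observations. mt-Nd5 averaged 32550 ± 4259 CPM in naproxen males and 22450 ± 3147 CPM in control males, and 24430 ± 2926 CPM in naproxen females and 25970 ± 7494 CPM in control females (SD, n = 5 each). Adra1a differed by 0.58 in males and 0.14 in females, and Fbxo32 by 0.49 in males and 0.06 in females. The genes with the smallest p for the difference included Rpl12 (-4.50), Maskbp3 (-0.63), Lhx6 (-0.74), Pla1a (-0.67) and Id1 (-0.82). The effect of Rpl12 was 2.35 in females, and whether copies share its reads was not tested.

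The PBS-injected females of the second experiment differ from the males in sex, dose, injection and cohort, which cannot be told apart. Of 16112 genes tested there, 0 passed an adjusted p of 0.05 in edgeR for the difference of the effects, and 1452 were at an unadjusted p under 0.05 (9.01%). DESeq2 and voom called 0 as well, with 1688 and 1315 at that p. Fnip2 differed by 0.78 in males and 0.25 in injected females, and Rnf144b by 0.82 in males and 0.24 in injected females, without a called difference between the effects (edgeR adjusted p of 0.48 and 0.38). Ppargc1a differed by 0.64 in males and 0.63 in injected females (edgeR adjusted p of the difference = 0.99). Ppara differed by 0.58 in males and 0.04 in injected females. Class II genes were lower in 9 of 9 cases in males and higher in 9 of 9 in injected females (median 0.20). Hipk2, a kinase of stress signalling, was among the 5 named for the smallest p of the difference, with 0.60 in males and -0.16 in injected females. So was Mtbp, with -0.57 in males and 0.12 in injected females, while Dnajb1 differed by -0.94 in males and 0.03 in injected females. Of the 100 genes with the smallest p in males, 49 had the same sign in injected females, against 41.9% of the 15138 genes tested in both. Of the 1184 at an unadjusted p under 0.05 in males, 34.5% had the same sign there.

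**Figure D5:**
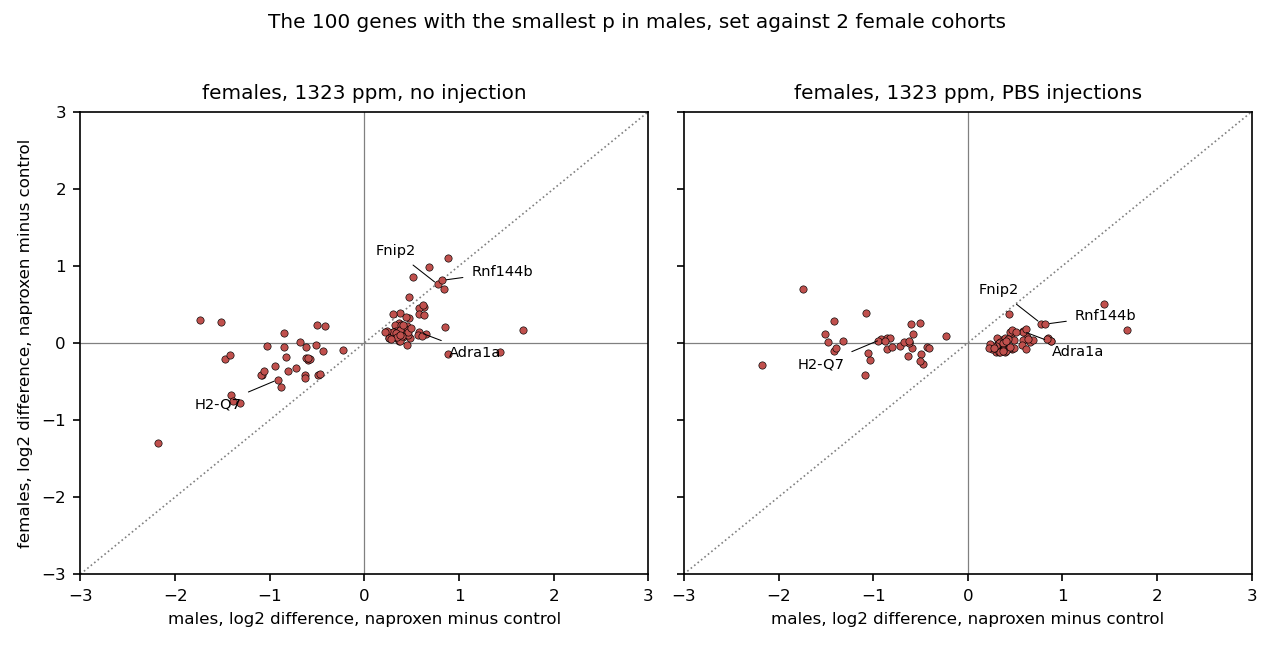
Log2 difference (naproxen minus control) of the 100 genes with the smallest p in males (horizontal) against females without injections (left panel) and PBS-injected females (right panel), 1 point per gene; the dotted line marks equal effects, and 2 genes lie beyond the axes. On the left 90 of 100 points share the sign and Fnip2 and Rnf144b lie near the line, and on the right 49 of 100 share it and most points lie near 0.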

How the data were processed

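RNA of whole mouse hearts was sequenced from poly-A libraries. Per the submitters' processing notes, the authors used Salmon 1.9.0, R 4.2.2 and the GRCm38 build, and deposited an estimated count for every gene and library. No label or file header says how transcript estimates were combined into genes. Of the deposited values 24.7% were not whole, and they were rounded. All tests used R 4.3.3 with edgeR 4.0.16: filterByExpr at a minimum count of 10, TMM scaling and robust quasi-likelihood F tests in 1 model of the 20 hearts of the first experiment, with Benjamini-Hochberg adjustment over all 15152 genes tested of 51368 and calls at 0.05. The effect in males was set against that in females in the same model, and against that in PBS-injected females in a model of their own hearts and the males. DESeq2 1.42.0 and limma 3.58.1 (voom) were alternatives, as were other scalings and filters, the 10 males alone and leaving out each heart. The scripts were tested on simulated counts. Errors of log2 differences are standard errors of the fitted model. Animals are labelled as separate, so p-values measure the spread between animals. The labelled identifiers of control males begin with E or G and those of naproxen males with F or H. The labels do not say what the letters mean, and whatever they stand for cannot be told apart from diet.

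Exonic lengths came from GENCODE M21 (GRCm38). Promoters came from RefSeq. Named genes were the 15 higher and 15 lower genes of smallest p with a symbol and at least 1 CPM, annotated pseudogenes left out, up to 4 of smallest p per list, Ptgs1, Ptgs2, Fnip2, Rnf144b, Ppargc1a and Rhobtb1, and 5 of smallest p for each difference of effects; not all are printed. Hearts, rule, 34 pathway lists and 16 marker lists were chosen with earlier results of these data known, and lists were described by counts and medians without a test.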

Additional observations from a re-analysis of the deposited data

Results flagged for a closer look

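In groups of 5 hearts, a highest or lowest value was listed when its gap to the nearest other heart exceeded 0.71 of the group's range (Dixon's test). This held for 12 of 188 groups (6.4%), where chance gives about 5%. Control heart 8 was highest of the controls in Ppara (37.7 CPM, a gap of 0.847 of the range) and Cacnb2 (84.2 CPM, 0.716). Control heart 10 was highest in Klf2 (31 CPM, 0.871), Cyp2f2 (28.2 CPM, 0.856) and summed erythroid markers (3978 CPM, 0.766), and lowest in Esrrg (39.3 CPM, 0.836) and Prkaa2, a catalytic subunit of AMP-activated protein kinase (139 CPM, 0.759). Naproxen heart 8 was highest in Sesn1 (172 CPM, 0.76). Naproxen heart 7 was lowest in summed macrophage markers (107.2 CPM, 0.844). Naproxen heart 9 was highest in summed erythroid markers (13830 CPM, 0.891), and the median log2 difference of that list was 1.18 with this heart and 0.11 without it. For 2 ribosomal protein copies, all but 1 heart of a group held 0: Rps27rt in naproxen heart 6 (0.953 CPM, 1.0) and Rpl10-ps3 in control heart 9 (1.83 CPM, 1.0). Rpl10-ps3 had 0, 42.4, 0, 77 and 65.9 CPM in naproxen hearts 6 to 10, while its parent Rpl10 had 97.1 to 184 CPM in naproxen hearts and 170 to 211 CPM in control hearts.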

How the results depend on the processing

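Against 0 genes called in males by edgeR, DESeq2 called 40 among the genes to which it gave an adjusted p. Testing without a filter on low counts called 1, a model of the 10 males alone 1, and the model with the replicate block 5. Leaving out each heart gave between 0 and 3. RLE scaling, library totals, removal of mitochondrially encoded transcripts, non-robust and legacy quasi-likelihood, voom and removal of the length trend, the last chosen after seeing the data, each gave 0. Same-numbered naproxen and control hearts had correlations of deviations of 0.31, 0.01, 0.09, -0.04 and 0.19, and 1 of 5 correlated best with its own number. These values show no clear pairing by number, and so few cannot exclude a weak one. For the difference from females DESeq2 called 1, and leaving out a heart called 0 each time. For the difference from injected females, leaving out a heart called between 0 and 2. Genes without overlap between the diets numbered 849 with library totals, 21 higher and 828 lower, against 469 with TMM. Of 50 list medians, library totals moved 27 by more than the spread and the length trend 2. Those 2 were the nuclear respiratory chain and mitochondrial transcription and genome maintenance. Fnip2 ranged in log2 difference between 0.60 and 0.83 and was past the threshold in 5 of 21 settings. Signs changed for Ptgs2 when single hearts were left out (-0.1255 to 0.0298, against -0.06) and for S100a9, a neutrophil gene under 1.1 CPM on average, when single hearts were left out (-0.5355 to 0.0327, against -0.36, positive without control heart 10); the cause was not tested. The smallest difference that 5 hearts per group can show was not tested.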
